A study of Mus musculus with 36 samples.

Results

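The DNA replication and mitosis genes are a set of 47 genes of the 24421 counted in each library. They were taken from a fixed list by what their proteins do, with no measured value in the rule. The set has 25 S phase genes, from the helicase subunit Mcm2 to cyclin E2 (Ccne2), and 22 mitotic genes, from Mki67, the gene of the Ki-67 antigen, to the microtubule regulator Stmn1. All 47 were in the files, and each had counts in at least some libraries of every population.

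Bulk RNA sequencing was done on 36 libraries from Apoe-deficient mice, which lack the lipoprotein ligand apolipoprotein E and develop atherosclerosis. Macrophages from collagenase-digested aorta, monocytes pooled from blood and spleen, and macrophages from peritoneal lavage were each sorted by flow cytometry. Each population was taken at baseline on chow diet, in early atherosclerosis after 1 month of high cholesterol diet, and in advanced atherosclerosis after 6 months of that diet, with 4 libraries per group. All mice carried the Apoe knockout, so no comparison here is against a wild-type animal. Age, sex and the number of mice behind a library were not given in the sources used here. Nothing in the labels ties each of the 4 libraries to its own mouse, and the p-values therefore measure only the spread between these libraries.

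Cells copy their DNA in S phase, when origins licensed by the Mcm2 to Mcm7 helicase are fired and polymerases extend the new strands around the sliding clamp Pcna. In mitosis the cyclin B kinase, the Aurora and Polo kinases and the spindle motors condense, align and divide the chromosomes. S phase genes are classic targets of E2F factors, and mitotic genes are classic targets of complexes that bind CHR and CCAAT elements in their promoters. Circulating monocytes are largely non-dividing descendants of dividing bone marrow progenitors, whereas tissue macrophages of the peritoneum and of atherosclerotic lesions are known to divide locally.

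The summed level of 8 monocyte genes was 6288 to 8829 CPM (counts scaled to a library total of 1e6) in monocytes and at most 3777 in the other libraries. The sum of 9 aortic macrophage genes was 9940 to 15847 CPM in the aorta and at most 8077 elsewhere. The sum of 8 peritoneal macrophage genes was 7567 to 24530 CPM in the peritoneum and at most 4078 elsewhere. Baseline libraries held 5.28 to 14.8 M counts (M, units of 1e6) and the other 24 held 0.943 to 2.63 M, so that in comparisons with baseline the stage and the depth cannot be told apart. Replicates of the aorta had a biological coefficient of variation of 110%, against 19.1% for monocytes and 21.2% for peritoneal macrophages. The aortic libraries also dropped genes. Between 0 and 26 of the 47 genes were at a count of 0 in an aortic library, with 26 and 25 in baseline libraries 3 and 4, and at most 6 in any other population. Of the other populations, advanced library 3 of the monocytes and early libraries 1 and 2 of the peritoneum also stood apart, and counts that rest on them are given with and without them.

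The level of a class in a library is given below as its summed CPM, and a single gene passed the test where its Benjamini-Hochberg adjusted p was under 0.05 by edgeR's quasi-likelihood test. In monocytes the S phase sum was 325 ± 73.1 CPM at baseline (mean ± SD, n = 4), 560 ± 92.5 in early and 639 ± 290.0 in advanced atherosclerosis. In peritoneal macrophages it was 544 ± 111, 509 ± 142 and 314 ± 60.1 CPM. In aortic macrophages it was 771 ± 148, 650 ± 55.4 and 693 ± 52.9 CPM. The mitotic sum spread more. It was 299.5 ± 229.7, 669.6 ± 135 and 1061 ± 913 CPM in monocytes, 419.5 ± 180.3, 346 ± 138 and 137 ± 55.9 in the peritoneum, and 871 ± 434, 363 ± 116 and 575 ± 146 in the aorta. The mean advanced sum was thus 3.54 times the baseline mean for mitotic genes in monocytes and 0.328 times the baseline mean in the peritoneum. In bulk libraries, fewer dividing cells and less of these RNAs per dividing cell cannot be told apart.

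**Figure D1:**
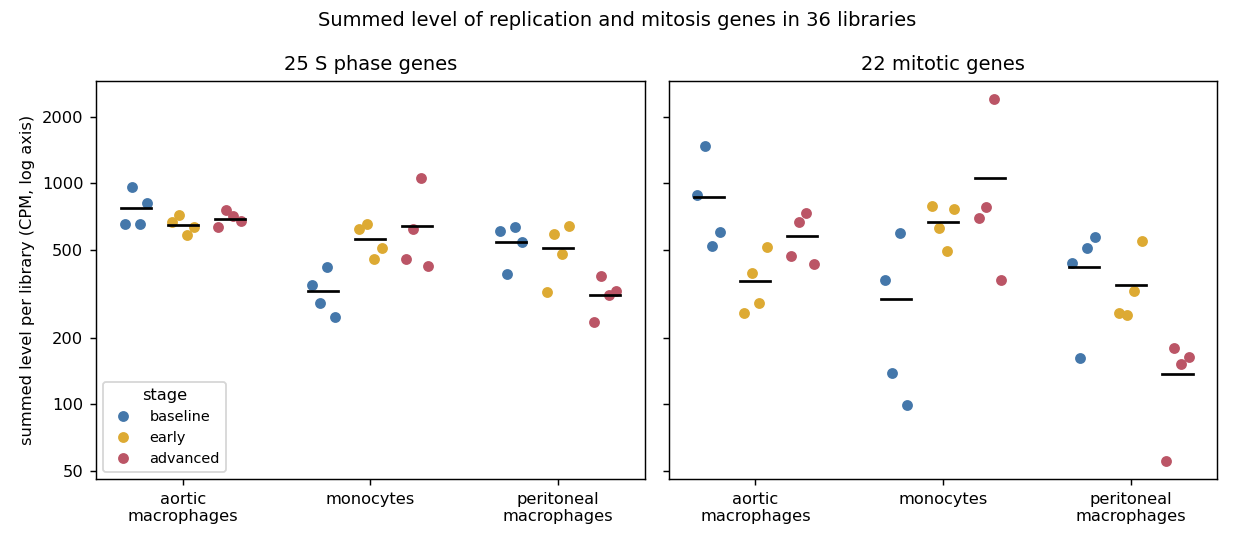
Summed level in CPM (log axis) of the 25 S phase genes (left) and the 22 mitotic genes (right) in each of 36 libraries; points are libraries, coloured by stage, and black bars are group means (n = 4). In monocytes the mean sums were lowest at baseline, with advanced library 3 far above the rest at 2404 CPM for mitotic genes, and in the peritoneum the mean sums were lowest in the advanced group, at 55.2 to 179 CPM for mitotic genes.

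Within a group the mitotic sum differed widely from library to library. The baseline monocyte libraries were at 364, 139, 596 and 98.9 CPM for replicates 1 to 4, so libraries 1 and 3 stood above libraries 2 and 4. The early libraries were at 786, 629.7, 496 and 766 CPM, and the advanced libraries at 696, 779.5, 2404 and 364 CPM. The lowest early library lay below the highest baseline library, so the groups overlapped. In the peritoneum the baseline libraries were at 435, 162, 509.95 and 571 CPM, the early libraries at 259, 253, 327 and 547 CPM, and the advanced libraries at 55.2, 179, 152 and 164 CPM. Every advanced peritoneal library lay below every early one, and baseline library 2 lay within the advanced range. The ratio of the mitotic to the S phase sum was 0.423 ± 0.126 in advanced peritoneal macrophages and 1.48 ± 0.600 in advanced monocytes (SD, n = 4 each). Monocyte advanced library 3 had a ratio of 2.28, and the other advanced monocyte libraries had 0.861 to 1.52.

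Per kilobase of exon, Pcna, the sliding clamp that holds polymerases on DNA, had the highest mean level of the 47 genes in all 9 groups. It ran from 23.0 CPM per kilobase in advanced peritoneal macrophages to 85.8 in early aortic macrophages. Mki67 came next in monocytes at every stage, at 14.3, 25.1 and 39.2 CPM per kilobase. Mcm6, a subunit of the replicative helicase, came next in the peritoneum at every stage, at 16, 12.5 and 9.05 CPM per kilobase. The origin factor Gins2 was the lowest of the 47 in monocytes, at 0.120 to 0.311 CPM per kilobase.

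**Figure D2:**
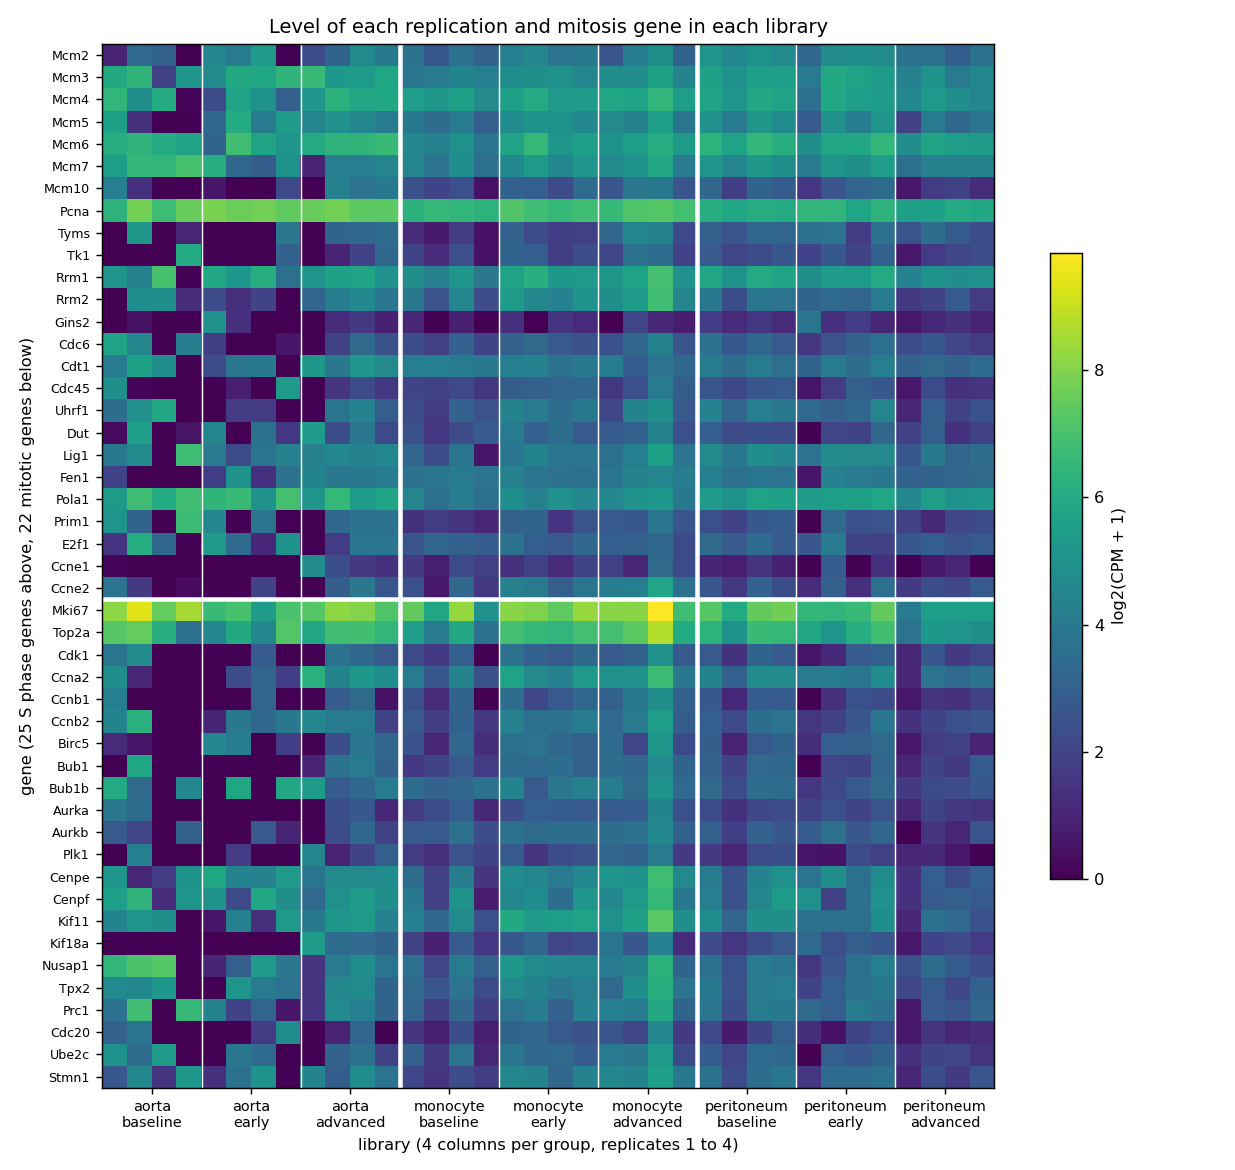
Level of each of the 47 genes in each library as log2(CPM + 1), with 4 columns per group and the S phase genes above the mitotic genes. Dark cells in the aorta are genes at or near 0 counts (26 and 25 of 47 at 0 in baseline libraries 3 and 4), and monocyte advanced library 3 is the bright column in the lower part.

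The first comparison in monocytes set the early group, after 1 month of diet, against baseline. In all, 10 of the genes rose, 5 of S phase and 5 of mitosis, and none fell, out of 45 that passed a filter on low counts. Of all 9465 genes tested in monocytes, 5.74% were called higher. In a fit without the filter, 23 of 25 S phase genes had a positive log2 fold change, with a median of 1.19, and all 22 mitotic genes did, with a median of 1.33. In the fit with the filter, the median over all genes tested was -0.00.

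Among the helicase genes, Mcm6 was at 22.5, 19.1, 30.1 and 13.1 CPM at baseline and at 52.4, 93.5, 35.9 and 46.0 CPM in early monocytes. The 2 groups did not overlap, and early library 2 was the highest. That library also had the highest T and NK cell, B cell and dendritic cell sums of its group (1576, 479 and 282 CPM). The part of those cells was not tested. The log2 fold change of Mcm6 was 1.45 ± 0.29 (SE) with an edgeR adjusted p of 0.00533. Mcm5, its partner in the helicase ring, was at 14.6, 10.3, 15.4 and 6.80 CPM at baseline and at 26.7, 31.2, 32.1 and 23.5 CPM early, again with no overlap. It rose by 1.29 ± 0.31 on the log2 scale (adjusted p = 0.0156 by edgeR). Pcna was at 79.0, 93.4, 90.0 and 82.5 CPM at baseline and at 144, 112, 95.1 and 113 CPM early. The groups lay next to each other without overlap, and the log2 change was small, at 0.46 ± 0.14 (edgeR adjusted p = 0.0465). Prim1, the catalytic subunit of primase, and Uhrf1, which guides maintenance DNA methylation behind the fork, rose by 1.69 ± 0.46 and 1.73 ± 0.50 (edgeR adjusted p = 0.0282 and 0.038).

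Among the mitotic genes, Stmn1, which destabilises microtubules, had the smallest p. It was at 3.32, 1.87, 3.99 and 2.43 CPM at baseline and at 21.7, 20.3, 8.82 and 19.5 CPM early, with no overlap. The log2 fold change was 2.60 ± 0.38 with an edgeR adjusted p of 0.000779. Top2a, the topoisomerase that untangles chromosomes, was at 44.0, 15.6, 60.2 and 11.8 CPM at baseline and at 123, 93.5, 87.5 and 119 CPM early. Baseline libraries 1 and 3 were again the higher ones, and the groups did not overlap. Its log2 change was 1.71 ± 0.51 (edgeR adjusted p = 0.0447). Kif11, the motor that pushes spindle poles apart, the checkpoint kinase Bub1 and cyclin B2 (Ccnb2) rose by 1.84 ± 0.52, 1.52 ± 0.41 and 1.76 ± 0.52, with edgeR adjusted p of 0.0357, 0.0281 and 0.0425. Mki67 did not pass. It was at 177, 57.9, 310 and 30.5 CPM at baseline and at 274, 245, 169 and 320 CPM early, so the groups overlapped (log2 fold change 0.85 ± 0.61, edgeR adjusted p = 0.406).

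Without overlap between the libraries, 10 S phase and 8 mitotic genes were higher in early than in baseline monocytes, against 7.27% of all genes tested. The number that passed the test was sensitive to single libraries. It was 3 without baseline library 1 or 4 or early library 1 or 2, 4 without baseline library 2 or early library 4, and 16 without baseline library 3. With the counts thinned to the shallowest library of the fit it was 5.

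With 6 months of diet, 28 of the 45 genes tested rose in monocytes against baseline, 15 of S phase and 13 of mitosis, and none fell. Of all genes tested, 9.23% were called higher. Without the low-count filter, 24 of 25 S phase genes were positive with a median log2 fold change of 1.19, and all 22 mitotic genes were, with a median of 2.02. In the fit with the filter, the median over all genes tested was -0.02. The baseline libraries are the same as in the comparison before, so the comparisons are not independent of each other.

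Tyms, thymidylate synthase, was at 1.33, 0.659, 2.23 and 0.389 CPM at baseline and at 8.60, 21.2, 18.4 and 3.63 CPM in advanced monocytes. The groups did not overlap, although baseline levels were near the floor of counting, and the log2 fold change was 3.44 ± 0.58 (edgeR adjusted p = 0.00111). Rrm2, the regulated subunit of ribonucleotide reductase, was at 14.5, 4.72, 22.6 and 3.98 CPM at baseline and at 27.8, 41.4, 113 and 21.1 CPM in the advanced group. Baseline library 3 lay above the lowest advanced library, and the log2 fold change was 2.22 ± 0.55 (edgeR adjusted p = 0.0116).

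Among genes that start and extend replication, Ccne2, which activates the kinase of the G1 to S transition, was at 4.32, 0.549, 8.80 and 2.04 CPM at baseline and at 17.2, 18.0, 54.6 and 11.6 CPM in the advanced group. It rose by 2.74 ± 0.61 without overlap (edgeR adjusted p = 0.00675), although its exons overlap those of Ints8 on the opposite strand. Prim1 rose by 2.17 ± 0.46 (edgeR adjusted p = 0.00516), and Pcna by 0.60 ± 0.14 (adjusted p = 0.0084 by edgeR). Mcm6 rose by 1.17 ± 0.30 (edgeR adjusted p = 0.014) and Mcm5 by 1.19 ± 0.32 (edgeR adjusted p = 0.0178). The other 8 S phase genes that passed had log2 fold changes from 0.72 for Mcm4 to 1.89 for Lig1. Some members of the class did not follow. Cdt1, which loads the helicase on origins, had a log2 fold change of -0.49 ± 0.25 (edgeR adjusted p = 0.203), and the transcription factor E2f1 one of 0.03 ± 0.34 (edgeR adjusted p = 0.963).

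Mitotic genes changed by larger steps, less so without advanced library 3. With all libraries the mean advanced sum was 3.54 times the baseline mean for mitotic and 1.97 times for S phase genes. Without advanced library 3 it was 2.05 and 1.54 times. Stmn1 was at 22.5, 20.2, 45.7 and 14.5 CPM in advanced monocytes, all above the 3.99 CPM of the highest baseline library, and rose by 3.20 ± 0.38 (edgeR adjusted p = 0.000195). Top2a was at 122, 164, 423 and 64.6 CPM, with no overlap with baseline, and rose by 2.63 ± 0.52 (edgeR adjusted p = 0.00329). Advanced library 4 was the lowest and library 3 the highest for both genes. Cenpe, the kinetochore motor that aligns chromosomes, was at 10.2, 2.86, 17.3 and 1.85 CPM at baseline and at 34.4, 29.7, 109 and 24 CPM in the advanced group. It rose by 2.69 ± 0.58 without overlap (edgeR adjusted p = 0.0053). Bub1, Kif11 and the spindle midzone bundler Prc1 rose by 2.04 ± 0.41, 2.31 ± 0.53 and 2.30 ± 0.55, with edgeR adjusted p of 0.00388, 0.00784 and 0.00988. Mki67 was at 271, 275, 920 and 113 CPM in the advanced group, overlapping baseline, and did not pass (log2 fold change 1.55 ± 0.62, edgeR adjusted p = 0.0916). Without overlap between the libraries, 6 S phase and 5 mitotic genes were higher in the advanced group, against 8.47% of all genes tested.

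Advanced library 3 carried much of this count. Without it, 8 of 45 genes passed, where 5.76% of all genes tested were called higher. All 8 were higher and were among the 28. They were Stmn1, Tyms, Top2a, Bub1, Cenpe, Pcna, Ccne2 and Prim1, with log2 fold changes from 0.48 for Pcna to 3.16 for Tyms. The mean mitotic sum of the 3 remaining advanced libraries was 613 ± 219.8 CPM (SD, n = 3), which was 2.05 times the baseline mean. Without baseline library 1, or without baseline library 2, 18 genes passed. In 1 fit of all 36 libraries, whose spread includes that of the aorta, none of the 47 passed in either comparison with baseline. Between early and advanced monocytes none of the 45 tested passed (edgeR), against 2.07% of all genes in either direction. DESeq2 and limma-voom gave 0 there as well.

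Genes of other blood cells also differed between the monocyte libraries. The sum of 10 granulocyte and monocyte progenitor genes was 60.7 to 91.3 CPM in baseline monocytes, 243 to 353 early and 174 to 883 in the advanced group, with all 10 genes detected at each stage. The sum of 11 neutrophil genes was 261 to 770 CPM, 3957 to 14751 CPM and 5222 to 41585 CPM, again with all 11 detected. Advanced library 3 was the highest and advanced library 4 the lowest of its group in both sums, as they were in the mitotic sum. The early group did not keep that order. Early library 3 had the highest progenitor sum of its group, at 353 CPM, with the lowest neutrophil and mitotic sums, at 3957 and 496 CPM. Prtn3, a primary granule protease of promyelocytes, rose by 4.41 ± 0.42 in advanced against baseline monocytes (edgeR adjusted p = 8.63e-05), and S100a8, an abundant neutrophil protein, by 5.97 ± 0.76 (adjusted p = 0.00025 by edgeR). Of 9 progenitor genes tested, 7 rose and 1 fell, and of 11 neutrophil genes 10 rose. Without advanced library 3, Prtn3 rose by 3.71 and S100a8 by 5.01. Prtn3 was not particular to monocytes. Without the libraries that stood apart it was higher by 2.64 in the peritoneum, averaged over the stages (edgeR adjusted p = 5.75e-13). The progenitor sum of peritoneal libraries, at 59.1 to 92.2 CPM, was also near that of baseline monocytes. At baseline the sum of erythroid genes was 267, 68.2, 548 and 157 CPM for libraries 1 to 4, higher in libraries 1 and 3 than in their neighbours, with Hba-a1, Hba-a2 and Hbb-bt at 0, and it was at most 105 CPM at the later stages. The part of these cells in the result was not tested.

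**Figure D3:**
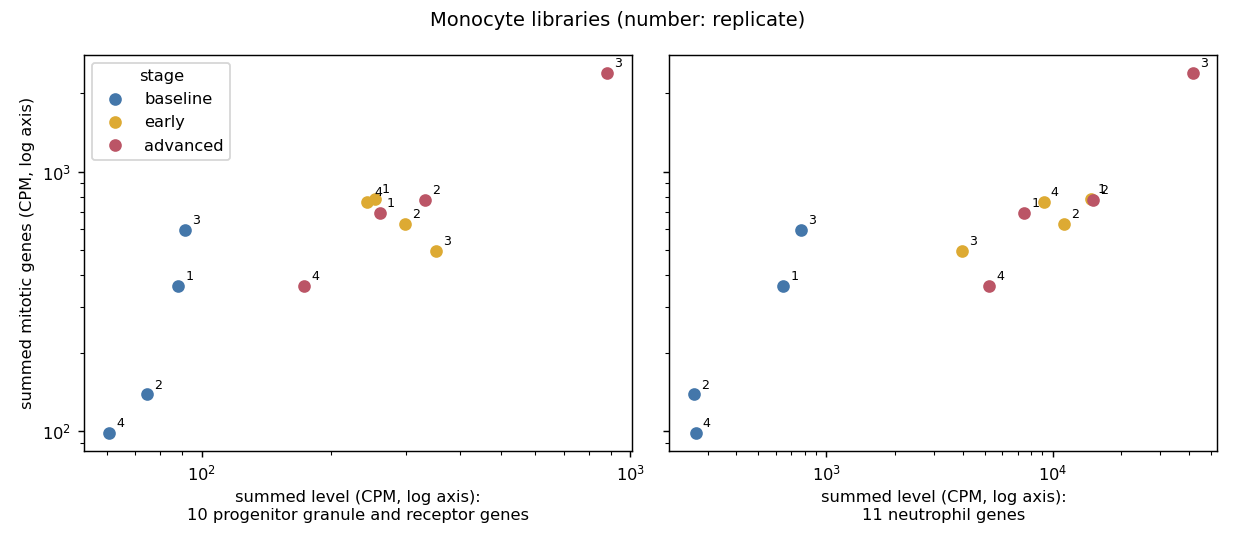
Summed mitotic genes of the 12 monocyte libraries against the sum of 10 progenitor genes (left) and 11 neutrophil genes (right), all in CPM on log axes; colour gives the stage and the number the replicate. Advanced library 3 is at the top right in both panels (883 and 41585 CPM), and the 4 baseline libraries are at the left.

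Other genes of the same processes, from lists of genes outside the 47, moved alike in monocytes. Of 33 further S phase genes tested, 6 were higher early and 9 in the advanced group, each against the same baseline, and none lower. They included Pole, the catalytic subunit of the leading strand polymerase, early (2.29 ± 0.50, edgeR adjusted p = 0.00928), and the chromatin remodeller Hells in the advanced group (1.35 ± 0.29, edgeR adjusted p = 0.00566). Of 41 further mitotic genes, 11 were higher early and 30 in the advanced group. Without advanced library 3, 4 further S phase and 6 further mitotic genes were higher in the advanced group, and 9 and 14 in the early group. With all libraries Kif20b, a motor of cytokinesis, rose by 2.43 ± 0.40 and Nuf2, a kinetochore subunit, by 3.22 ± 0.55 in the advanced group (edgeR adjusted p = 0.00101 and 0.00114). Without advanced library 3, Hells, Kif20b and Nuf2 rose by 1.02, 1.77 and 2.31. Of 20 G1 cyclins, kinases and E2F regulators tested, 2 rose and 1 fell in the advanced group. Tfdp1, the dimerisation partner of E2F factors, rose by 1.02 ± 0.21 (edgeR adjusted p = 0.00438), and the repressor E2f4 changed by -0.56 ± 0.11 (edgeR adjusted p = 0.00389). Without advanced library 3, Tfdp1 rose by 0.61 and E2f4 changed by -0.56. Cyclin D2 (Ccnd2) was higher in early monocytes, by 2.00 ± 0.47 against baseline (edgeR adjusted p = 0.015), and lower in advanced than in early monocytes, by -2.73 ± 0.59 (edgeR adjusted p = 0.0278). The latter did not pass without advanced library 3 (edgeR adjusted p = 0.0803). T and NK cell genes were also high there, at 95.1 to 1576 CPM in sum in the early monocytes against at most 94.3 CPM in the other monocyte libraries, and their part was not tested.

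Promoters are printed here for some of the genes that rose together in early monocytes. RefSeq windows of GRCm38.p6, from 250 bases before to 50 after the transcript start, were available for 40 of the 47 genes, 22 of S phase with 27 windows and 18 of mitosis with 19 windows. Both strands were searched for TTTNNCGC (E2F element), TTTGAA (CHR element) and CCAAT. TTTNNCGC was in 40.7% of S phase windows, 10.5% of mitotic windows and 5.17% of all 32851 windows. TTTGAA was in 68.4% of mitotic windows, 11.1% of S phase windows and 17.9% of all. CCAAT was in 84.2% of mitotic windows, 55.6% of S phase windows and 37.4% of all. All 13 mitotic windows with TTTGAA also held CCAAT, a combination found in 6.95% of all windows. Matches are letters in a window and do not show that a factor binds.

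The stretches below end before the annotated gene start and belong to genes that rose in early monocytes, with Mki67 added for the peritoneum. Only genes that held a match were printed. Among the others that rose early, the windows of Pcna and Prim1 held no TTTNNCGC and that of Bub1 no TTTGAA, while Ccnb2 held TTTGAA. Capitals mark TTTNNCGC, in either orientation, in the S phase genes and TTTGAA, or TTCAAA on the opposite strand, in the mitotic genes. Positions are on GRCm38.p6, and each sequence is 5′ to 3′ on the strand of the gene.
Mcm5 (chr8:75109339-75109467, plus strand): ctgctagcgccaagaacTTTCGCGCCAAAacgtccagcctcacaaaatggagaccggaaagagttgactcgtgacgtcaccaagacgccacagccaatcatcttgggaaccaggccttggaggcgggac
Mcm6 (chr1:128359706-128359875, minus strand): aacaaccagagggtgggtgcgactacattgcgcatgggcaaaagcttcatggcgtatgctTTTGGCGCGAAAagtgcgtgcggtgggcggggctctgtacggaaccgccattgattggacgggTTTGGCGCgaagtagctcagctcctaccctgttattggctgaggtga
Uhrf1 (chr17:56303167-56303336, plus strand): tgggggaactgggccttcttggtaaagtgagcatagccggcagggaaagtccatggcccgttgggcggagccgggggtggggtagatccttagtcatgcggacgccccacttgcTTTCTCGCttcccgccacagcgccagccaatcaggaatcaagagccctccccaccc
Top2a (chr11:99024200-99024359, minus strand): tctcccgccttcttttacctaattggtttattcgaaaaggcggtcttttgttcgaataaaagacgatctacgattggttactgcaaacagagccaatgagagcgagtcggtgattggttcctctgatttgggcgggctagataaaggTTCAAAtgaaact
Kif11 (chr19:37376212-37376381, plus strand): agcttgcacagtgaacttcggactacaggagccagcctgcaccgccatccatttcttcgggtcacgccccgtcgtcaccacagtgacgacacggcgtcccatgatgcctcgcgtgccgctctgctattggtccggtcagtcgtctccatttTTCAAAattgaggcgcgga
Mki67 (chr7:135716451-135716549, minus strand): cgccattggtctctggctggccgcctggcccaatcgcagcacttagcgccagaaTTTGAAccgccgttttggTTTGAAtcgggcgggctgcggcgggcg
The 2 matches in Mcm5 overlapped, on opposite strands. Mcm6 held 3 matches, of which those beginning 110 and 106 bases before the transcript start overlapped on opposite strands and the other began 47 bases before it. In Top2a and Kif11 the single match began 23 and 19 bases before the transcript start.

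**Figure D4:**
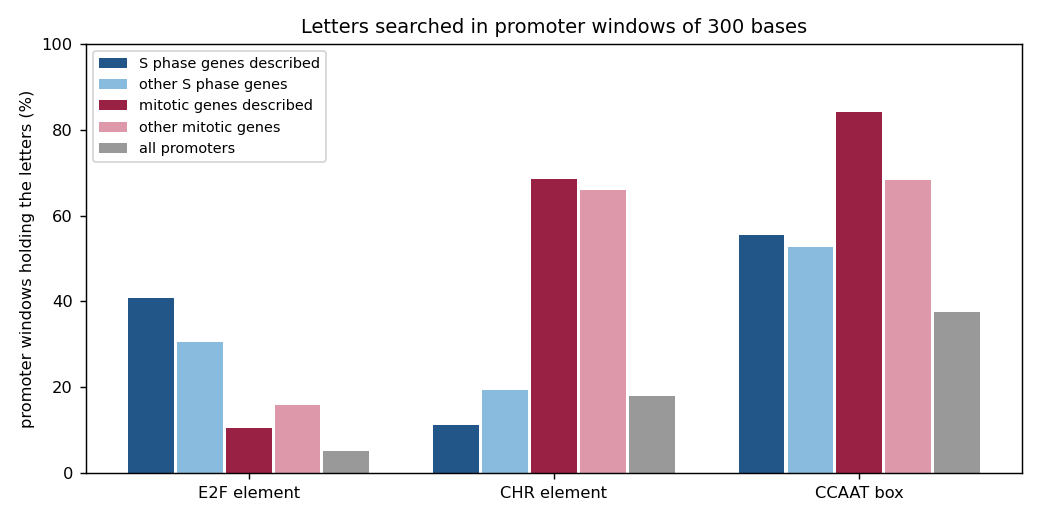
Percent of promoter windows that hold the letters of each element, for the S phase and mitotic genes described here, for further S phase and mitotic genes outside the 47, and for all 32851 windows (grey). The E2F letters were most frequent in S phase windows (40.7%) and the CHR letters in mitotic windows (68.4%), with 5.17% and 17.9% over all windows.

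Peritoneal macrophages moved the other way at the last stage. In a fit without the low-count filter, all 25 S phase and all 22 mitotic genes had a negative log2 fold change in advanced against baseline macrophages, with medians of -0.80 and -1.41. They were also all negative against early macrophages, which were sequenced to a similar depth, with medians of -0.73 and -1.01. In the fit with the filter, the medians over all genes tested were 0.01 and -0.02. The advanced libraries are shared by these 2 comparisons. Single genes mostly did not pass.

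Mki67 passed, as 1 of 40 genes tested in advanced against baseline, where 0.386% of all genes were called lower. It was at 156, 63.2, 177 and 210 CPM at baseline, at 89.8, 88.3, 101 and 176 CPM early, and at 15.8, 45.0, 44.1 and 45.2 CPM in the advanced group. Every advanced library lay below every library of both other groups. The log2 fold change against baseline was -1.94 ± 0.39 (edgeR adjusted p = 0.0414), and against early -1.56 ± 0.40 (edgeR adjusted p = 0.0716). The call against baseline was lost when any of 7 of the 8 libraries compared was left out, with adjusted p from 0.0565 to 0.136 in edgeR, and it held without baseline library 2 (adjusted p = 0.0277). The log2 fold change stayed between -2.20 and -1.69 in those fits.

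Other genes had similar changes without passing. Top2a was at 81.5, 31.9, 97.6 and 93.3 CPM at baseline and at 12.6, 37.2, 33.2 and 28.5 CPM in the advanced group (log2 fold change -1.38 ± 0.43, edgeR adjusted p = 0.125). Baseline library 2 was the lowest of its group for both Mki67 and Top2a and lay within the advanced range of the latter. Mcm5 was at 30.3, 15.8, 35.6 and 26.6 CPM against 2.73, 16.2, 8.71 and 13.6 CPM (-1.31 ± 0.48, edgeR adjusted p = 0.193). Pcna moved least of these, from 69.4, 59.0, 69.5 and 66.0 CPM to 47.5, 49.2, 64.8 and 59.7 CPM (-0.17 ± 0.15, edgeR adjusted p = 0.629). Mcm2, picked here after its values were seen because it was nearest to the threshold, was at 32.9, 23.3, 32.1 and 25.2 CPM at baseline and at 12, 11.4, 6.54 and 12.2 CPM in the advanced group. Those libraries did not overlap, and its log2 fold change was -1.34 ± 0.31 (edgeR adjusted p = 0.0542).

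Without overlap, 7 S phase genes and 1 mitotic gene were lower in advanced than in baseline peritoneal macrophages, against 10.3% of all genes tested. Against early macrophages they were 2 S phase and 5 mitotic genes, against 4.29%. In that comparison none of the 40 genes tested passed in edgeR, where 1.32% of all genes were called. DESeq2 called 6 lower and limma-voom 1, where they called 3.26% and 1.12% of all genes lower. Without early library 1, 3 genes passed in edgeR.

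The spread of the early peritoneal libraries entered these tests. Early libraries 1 and 2 had peritoneal defining genes at 12101 and 7567 CPM in sum, against at least 16996 in every other peritoneal library, and dendritic cell genes at 147 and 457 CPM, against at most 74.6. In a fit without these libraries, 15 of 42 genes tested fell in advanced against baseline and none rose, 10 of S phase and 5 of mitosis. Top2a (-1.38 ± 0.36, edgeR adjusted p = 0.0258) and Mcm5 (-1.31 ± 0.36, adjusted p = 0.0364 by edgeR) were among them, and Pcna was not. In that fit 1071 genes of all those tested were called, where 86 were called with all libraries, and 5.25% were called lower. With all libraries DESeq2 called 8 of the 40 genes lower and limma-voom 7, where they called 2.10% and 6.50% of all genes lower.

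Between baseline and early peritoneal macrophages none of the 40 genes passed (edgeR), against 1.88% of all genes, and none had an unadjusted p under 0.05. DESeq2 and limma-voom called none. Of 10 cell cycle inhibitors tested, Btg2 and Btg1, which restrain proliferation, rose early by 1.14 ± 0.23 and 1.17 ± 0.26 (edgeR adjusted p = 0.0297 and 0.042), and Btg2 then changed by -1.32 ± 0.23 from early to advanced (edgeR adjusted p = 0.02). These calls held without early libraries 1 and 2 (edgeR adjusted p = 0.00424, 0.002 and 0.0021). In advanced against baseline none of 32 further S phase genes and none of 37 further mitotic genes passed in edgeR. Their median log2 fold changes were -0.48 and -0.996. Without early libraries 1 and 2, 8 of 33 further S phase genes fell and 1 rose, and 8 of 41 further mitotic genes fell. Neutrophil genes summed to at most 45.0 CPM in any peritoneal library, and progenitor genes to 59.1 to 92.2 CPM.

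**Figure D5:**
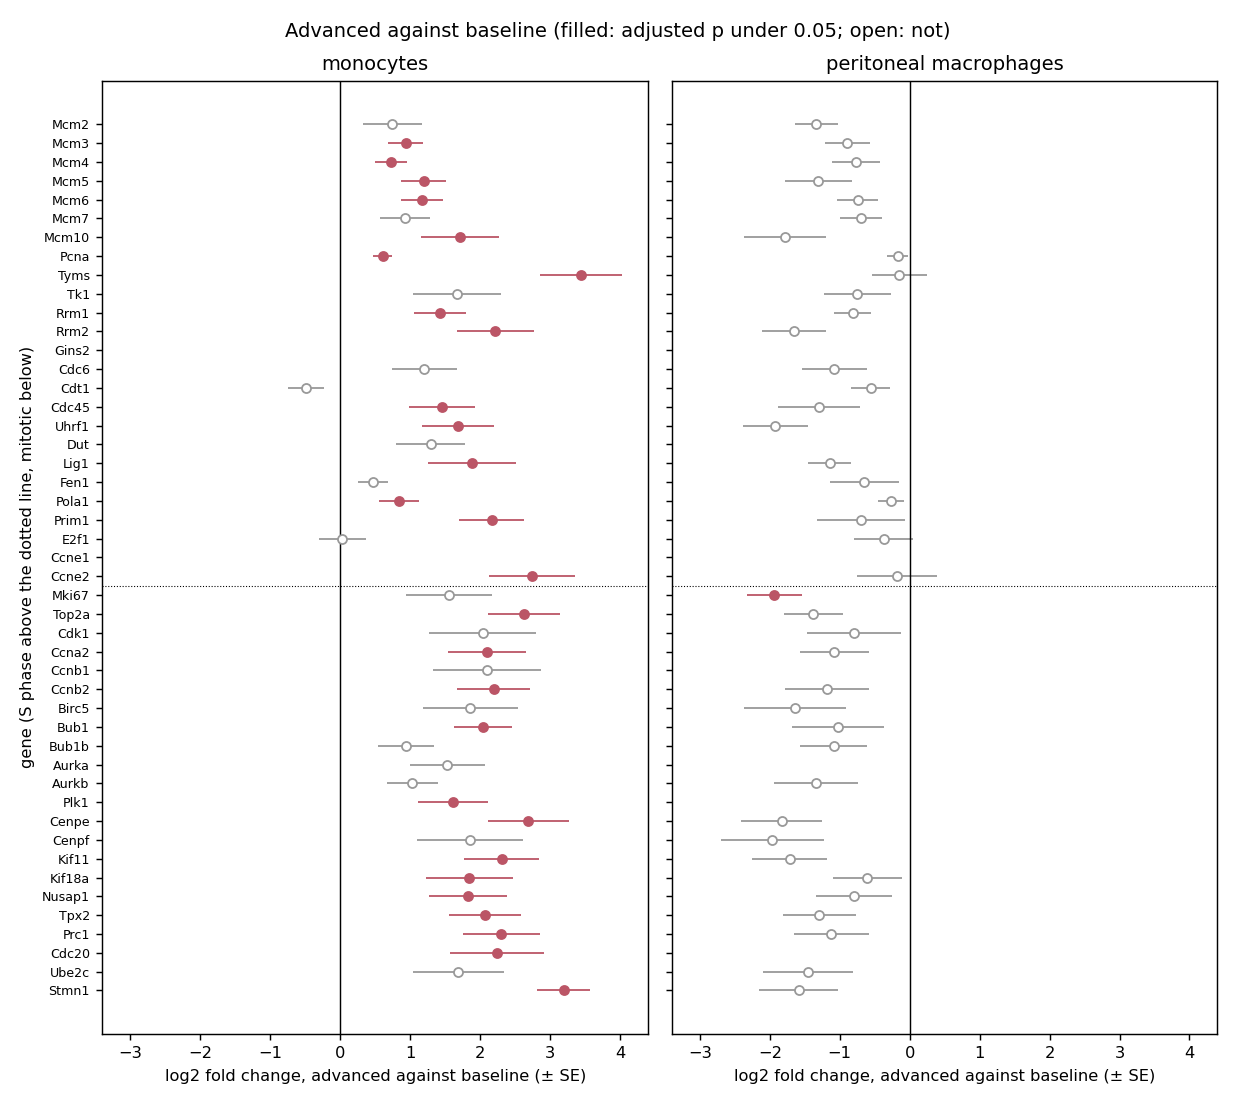
Log2 fold change (± SE, edgeR) of each gene tested, advanced against baseline, in monocytes (left) and peritoneal macrophages (right); filled red points passed at an adjusted p under 0.05, open grey points did not, and the dotted line parts S phase genes (above) from mitotic genes. In monocytes 28 points are filled, all to the right of 0, and in the peritoneum 1 is filled (Mki67, -1.94) and every point lies to the left of 0.

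The difference between the 2 responses was tested directly, as the peritoneal minus the monocyte log2 fold change in a fit of the 24 libraries of both populations. For advanced against baseline it passed for 20 of 45 genes, 10 of S phase and 10 of mitosis, and was negative for all 20, while 1.69% of all genes were called in that direction. Without the filter it was negative for all 47 genes, with medians of -2.21 for S phase and -3.36 for mitotic genes. In the fit with the filter, the median over all genes tested was 0.05. Stmn1 differed by -4.77 ± 0.70 (edgeR adjusted p = 0.00111), Cenpe by -4.51 ± 0.91 (edgeR adjusted p = 0.0108), Kif11 by -4.02 ± 0.84 (edgeR adjusted p = 0.0139) and Top2a by -4.00 ± 0.75 (edgeR adjusted p = 0.00722). Mki67, which had not passed in monocytes alone, differed by -3.48 ± 0.84 (edgeR adjusted p = 0.0274). Rrm2, Uhrf1 and Tyms differed by -3.87 ± 0.83, -3.60 ± 0.76 and -3.57 ± 0.72 (edgeR adjusted p = 0.0156, 0.014 and 0.0108). Mcm5 differed by -2.49 ± 0.61 (edgeR adjusted p = 0.031), and the helicase genes Mcm6 and Mcm3 by -1.91 ± 0.45 and -1.81 ± 0.42 (edgeR adjusted p = 0.0242 and 0.0241).

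Monocyte advanced library 3 weighed on this count as well. Without it the difference passed for 4 genes, namely Stmn1, Top2a, Tyms and Cenpe, with log2 differences from -4.29 to -3.20. Without that library and without peritoneal early libraries 1 and 2 it passed for 12, where 1.17% of all genes were called in the negative direction. All 12 were negative, and 11 were among the 20. Counts of 7 to 11 were reached without monocyte baseline library 2, peritoneal baseline library 3 or 4, or peritoneal advanced library 1, 2 or 3. For early against baseline the difference passed for 2 of 45 genes, where 0.512% of all genes were called in that direction. They were Mcm6 (-1.75 ± 0.43, edgeR adjusted p = 0.0301) and Stmn1 (-2.84 ± 0.65, edgeR adjusted p = 0.0192). Neither passed without peritoneal early library 2 (adjusted p = 0.0986 and 0.0629 by edgeR). Of the other libraries, leaving out monocyte baseline 2 or 4, monocyte early 2, or peritoneal baseline 1, 3 or 4 left 1 gene, and leaving out peritoneal early 4 gave 6. For advanced against early none of 45 passed in edgeR, against 1.25% of all genes. DESeq2 called 1 there, in the negative direction, where it called 2.54% of all genes in that direction.

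Averaged over the stages, the peritoneal macrophages and the monocytes differed in some genes of both classes. Of 23 S phase genes tested, 5 were higher and 3 lower in the peritoneum, and of 22 mitotic genes 10 were lower and none higher. Of all 10343 genes tested, 32.5% were called higher and 34.6% lower, so the S phase shares lay below the background and the mitotic share above it. The mitotic share did not stay there without the libraries that stood apart, when 4 of 22 mitotic genes were lower, against 33.5% of all genes, and 8 S phase genes were higher and 2 lower. Limma-voom with all libraries called 5 mitotic genes lower. The mean over stages also joins unlike stages. At baseline the mean mitotic sum was 419.5 CPM in the peritoneum and 299.5 CPM in monocytes, Kif11 was at 22.7 ± 9.66 and 14.3 ± 9.46 CPM (SD, n = 4 each), and Mki67 at 152 ± 62.9 and 144 ± 127.6 CPM. In the advanced groups the mitotic sums were 137 and 1061 CPM. Pola1, the catalytic subunit of the priming polymerase, was at 32.2 to 49.8 CPM in baseline peritoneal macrophages and at 11.1 to 21.3 CPM in baseline monocytes. It was higher by 1.12 ± 0.15 over the stages (edgeR adjusted p = 2.74e-07). Tyms, Mcm6, Mcm3 and Mcm2 were higher by 1.14 ± 0.30, 0.78 ± 0.18, 0.69 ± 0.17 and 0.69 ± 0.23 (edgeR adjusted p = 0.00184, 0.000649, 0.00122 and 0.00964). Pcna, Rrm2 and Ccne2 were lower, with log2 differences of -0.51 ± 0.09, -1.61 ± 0.34 and -1.06 ± 0.38 (edgeR adjusted p = 1.39e-05, 0.000176 and 0.0168). Mki67 was lower by -1.28 ± 0.34 and Kif11 by -1.26 ± 0.34 on the log2 scale (edgeR adjusted p = 0.00185 and 0.00236). The kinase Plk1, the checkpoint genes Bub1b and Aurkb and the spindle gene Nusap1 had differences from -1.45 to -0.91. The other 4 lower mitotic genes were Ccnb1, Aurka, Tpx2 and Ube2c. Without the libraries that stood apart Mki67, Kif11, Bub1b and Aurkb still passed, with smaller differences from -0.82 to -0.63, and Ccne2, Plk1 and Nusap1 did not.

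Aortic macrophages gave no stage difference that passed. In each of the 3 stage comparisons none of 42 genes tested passed in edgeR, where 0.373%, 0.0403% and 0.585% of all 9920 genes were called for early against baseline, advanced against early and advanced against baseline. DESeq2 called 2, 1 and 1, where it called 341, 26 and 294 of all genes tested. Limma-voom called 3 in advanced against early, where it called 235 of all genes tested.

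Mki67 was at 291, 661, 181 and 368 CPM at baseline, at 100, 127, 42.2 and 130 CPM early and at 150, 289, 257 and 139 CPM in the advanced group. The early libraries lay below all libraries of both other groups, where 2.64% of all genes were lower early than at baseline without overlap. In advanced against early, 2 S phase and 4 mitotic genes, Mki67 among them, were higher without overlap. No share over all genes is given for that comparison. The log2 fold change was -1.78 ± 0.44 for early against baseline (edgeR adjusted p = 0.0908) and 1.06 ± 0.43 for advanced against early (edgeR adjusted p = 1). Without baseline libraries 3 and 4 and advanced library 1, and also without baseline library 3 alone, 1 gene passed for early against baseline. Top2a was at 154, 185, 70.8 and 11 CPM at baseline, at 23.4, 61.7, 23.2 and 146 CPM early and at 54.0, 112, 115 and 88.7 CPM in the advanced group, with overlap throughout. Mcm5 was at 47.1, 1.68, 0 and 0 CPM at baseline, at 9.15, 65.6, 16 and 42.1 CPM early and at 21.4, 30.3, 22.1 and 15.8 CPM in the advanced group. Pcna, by contrast, was present in all 12 libraries, at 80.9 to 221 CPM at baseline, 174 to 235 early and 164 to 217 in the advanced group.

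Some aortic genes were at 0 in whole groups, and no share of all genes with such patterns is given. Kif18a, a kinesin that dampens chromosome movements, had no count in any of the 8 baseline and early libraries and was at 41.0, 10.3, 9.99 and 7.70 CPM in the advanced group. Its exons overlap those of Mettl15 on the opposite strand. At baseline Bub1 was at 0, 55.2, 0 and 0 CPM and Ccne1 at 0.103, 0, 0 and 0 CPM. Bub1 and Ccne1 had no count in the 4 early libraries and were at 0.932 to 15.4 and 1.62 to 26.1 CPM in the advanced ones. At these depths 3 counts, the limit that a count of 0 allows, were worth up to 2.29 CPM in an early library. The lowest of the advanced values of Bub1 and Ccne1, Bub1 in library 1, was a single count, below the 2.80 CPM that 3 counts were worth there. Ccne1 in advanced libraries 3 and 4, at 2.08 and 1.62 CPM, and Aurka in library 4 also lay below 2.29 CPM. The number of the 47 genes with no count was 13 to 18 in early libraries and 17, 0, 0 and 1 in advanced libraries 1 to 4, and its part in the result was not tested. Fibroblast genes summed to 483 to 1027 CPM in early aortic libraries against 8.89 to 379 CPM in the others, and their part was not tested either.

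Against the other populations, averaged over the stages, aortic macrophages had higher Pcna. It exceeded monocytes by 0.73 ± 0.16 (edgeR adjusted p = 0.00068) and peritoneal macrophages by 1.36 ± 0.17 (edgeR adjusted p = 3.22e-07) on the log2 scale. Pola1 was higher by 1.78 ± 0.30 and 0.77 ± 0.26 (edgeR adjusted p = 2.95e-05 and 0.0272). In all, 4 S phase genes were higher and 1 lower and 2 mitotic genes lower than in monocytes, where 14.1% and 15.7% of all genes were called higher and lower. Mcm3 and Mcm6 were the other 2 higher genes, by 1.15 ± 0.37 and 0.79 ± 0.30 (edgeR adjusted p = 0.0169 and 0.0456), and Rrm2, the mitotic kinase Aurka and Kif18a the lower ones. Rrm2 changed by -1.70 ± 0.64 and Aurka by -2.91 ± 1.00 (edgeR adjusted p = 0.047 and 0.0291). Several of these calls were fragile, and over 33 alternatives Rrm2 lost its call in 24, Mcm6 in 12, and Pola1 against the peritoneum in 20. Against the peritoneum 2 S phase genes and Mki67 were higher, the last by 1.11 ± 0.25 (edgeR adjusted p = 0.00124), and Kif18a lower, with 14.9% and 11.9% of all genes called higher and lower. Both shares of these genes lay below or near the background. The fitted change of Kif18a rests on groups with no count and is not given as a size. Without aortic baseline library 1, 13 genes passed against monocytes, and without aortic baseline library 3, 7 passed against the peritoneum.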

How the data were processed

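The deposited values are counts per gene, as the authors deposited them for each of 36 libraries. STAR, featureCounts and the mm10 build are named per the submitters' processing notes, with versions, settings and strand rule not given in the sources used here. Libraries were made with the Ovation SoLo kit from RNA of sorted cells, per the labels' protocols. Without strand, exons of 11 of the 47 genes that overlap another counted gene cannot be told apart from it. CPM were counts divided by the library total.

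Tests used edgeR 4.0.16 (R 4.3.3, TMM, filterByExpr, quasi-likelihood, Benjamini-Hochberg over all genes tested, threshold 0.05). Stages were compared within the 12 libraries of a population, and populations and differences of response within the 24 libraries of a pair. Alternatives were other size factors, no low-count filter, DESeq2 1.42.0, limma-voom 3.58.1, a replicate block, thinned counts, no Rn45s RNA, 1 fit of all libraries, and leaving out libraries. Counts of the further lists without the libraries that stood apart were added after seeing the data. The tests were checked on simulated data. An earlier account of these data had named the libraries that stood apart. Mki67, Top2a, Mcm5 and Pcna were always named, beside up to 6 genes per class with the smallest adjusted p among those called, and up to 4 per further list. The genes and lists were chosen with earlier results of these data known. Promoters are from RefSeq on GRCm38.p6. No pair of libraries of a group held identical counts.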

Additional observations from a re-analysis of the deposited data

Results flagged for a closer look

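Single libraries lay far from the other 3 of their group in 3 of 54 groups of values tested, where chance alone gives about 1 in 20. For Mki67, peritoneal early library 4 was high at 176 CPM and peritoneal advanced library 1 low at 15.8 CPM. For Mcm5, aortic baseline library 1 was high at 47.1 CPM, with the other 3 at 0 to 1.68 CPM.

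By edgeR's test of the difference, the change from baseline differed between peritoneal macrophages and monocytes for 2 genes early and 20 in advanced atherosclerosis. Baseline libraries were also the deeper ones, so stage and depth cannot be told apart here. No chow library was taken at the later stages, so diet and time cannot be told apart either. Early, the peritoneal minus the monocyte log2 fold change was -1.75 for Mcm6 and -2.84 for Stmn1. In advanced atherosclerosis it was -4.77 for Stmn1, -4.51 for Cenpe, -4.02 for Kif11, -4.00 for Top2a, -3.48 for Mki67 and -3.36 for the spindle assembly factor Tpx2. Among S phase genes it was -3.87 for Rrm2, -3.60 for Uhrf1, -3.57 for Tyms, -2.49 for Mcm5, -2.23 for Rrm1, -1.91 for Mcm6 and -1.81 for Mcm3. Neutrophil and progenitor genes were higher in the monocyte libraries of both diet stages than at baseline, and their part in these differences was not tested.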

How the results depend on the processing

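Counts of the 47 genes that passed are given here. Between early and advanced monocytes, and between baseline and early peritoneal macrophages, the count was 0 under every alternative run. With 1 library left out at a time it ranged from 3 to 16 for early against baseline monocytes, 8 to 37 for advanced against baseline monocytes, 0 to 3 for advanced against early and 0 to 1 for advanced against baseline peritoneal macrophages, and 0 to 1 for early against baseline aortic macrophages. For the difference between responses it ranged from 0 to 6 early against baseline, 0 to 2 advanced against early (2 without peritoneal early library 1) and 4 to 28 advanced against baseline. For the populations it ranged from 13 to 22 for peritoneum against monocytes, 5 to 13 for aorta against monocytes and 3 to 7 for aorta against peritoneum.

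Without the low-count filter the count was 1 for aorta early against baseline, 1 for peritoneum advanced against early and 3 for peritoneum advanced against baseline. DESeq2 gave 2, 1 and 1 for the aortic comparisons of early against baseline, advanced against early and advanced against baseline, 6 and 8 for advanced peritoneal macrophages against early and baseline, 1 and 32 for the difference in advanced against early and against baseline, 12 for aorta against monocytes and 7 for aorta against peritoneum. Limma-voom gave 3 for aorta advanced against early, 16 for early monocytes, 1 and 7 for the 2 advanced peritoneal comparisons, 0 for the early difference and 1 for aorta against peritoneum. Thinned counts, with fewer genes tested, gave 5 for early monocytes, 0, 1 and 11 for the differences early against baseline, advanced against early and advanced against baseline, and 7 for aorta against peritoneum. Without the 6 libraries that stood apart the counts were 1 for aorta early against baseline, 18 and 8 for early and advanced monocytes, 1 and 15 for the 2 advanced peritoneal comparisons, 0 and 12 for the early and advanced differences from baseline, 14 for peritoneum against monocytes (8 higher and 6 lower, where all libraries gave 5 and 13), 10 for aorta against monocytes and 7 for aorta against peritoneum. One fit of all 36 libraries gave 7, 3 and 4 for the aortic comparisons, 0 for both monocyte comparisons with baseline, 0 for peritoneum advanced against baseline, 0 for both differences from baseline, 5 for peritoneum against monocytes and 11 for aorta against monocytes. The causes of these shifts were not tested.

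With the replicate number as a block the count was 19 for early and 30 for advanced monocytes against baseline, 1 for advanced against baseline peritoneal macrophages, 14, 5 and 4 for the 3 population comparisons, 17 for the advanced and 0 for the early difference, and 0 elsewhere. The correlation of the deviations of libraries with the same number had a median of -0.00624 across stages and exceeded 0.1 in 1 of 36 pairs. Across populations at a stage its median was 0.0172 and it exceeded 0.1 in 4 of 36 pairs, with a highest value of 0.233, against 2 of 108 pairs of different numbers. Most pairs were thus under 0.1, and the labels name no shared mouse, so the block was not taken as a pairing. Of the values of single named genes, 1318 kept their call and 252 lost it over the alternatives, and 0 reversed. Low depth outside baseline and genes at 0 counts in the aorta limit what could be detected.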
